A study of Mus musculus with 12 samples.

Results

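The Kruppel-like factor genes Klf2, Klf3, Klf4, Klf5, Klf6, Klf7, Klf9, Klf10, Klf13 and Klf15 were followed in mouse heart after ischemia and reperfusion. They were chosen by gene symbol, with earlier results of these data known. They were taken as family members beside Klf5, whose product is the stated target of the compound ML264. They make 10 of the 33615 gene symbols and 29 of the 104952 transcript rows of the count table. Bulk RNA sequencing of myocardial tissue gave 12 libraries in 3 groups of 4. The groups were sham operation (Sham), ischemia for 30 min with reperfusion for 2 h (I/R), and that procedure in mice that received ML264, a pharmacological KLF5 inhibitor (I/R + ML264). Sham libraries carry the same 2 h label. The labels leave out strain, genotype, age, the sampled region of the heart, and the dose and timing of ML264, and no group had ML264 without injury. The stated purpose was to find pathways that KLF5 controls in this injury. The labels do not state whether each library of a group is a separate mouse, and p-values rest on how much libraries of a group vary.

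Kruppel-like factors are zinc-finger transcription factors that bind GC-rich and CACCC sequences through fingers at the carboxyl end. Their divergent amino ends decide whether a member activates or represses, through acetyltransferases in one branch and through the CtBP or SIN3 corepressors in the others. In the cardiovascular system KLF2 and KLF4 are best known in endothelium, KLF15 in the daily rhythm of cardiac metabolism, KLF5 in smooth muscle and in cardiac lipid use, and KLF9 as a target of glucocorticoid and thyroid hormone receptors. Several members are immediate responders to stress, so their messages can change within hours.

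Promoters are shown for the 5 members with an E-box, AP-1 or MEF2 match, so that the motifs before their start sites can be set beside their levels. RefSeq (GRCm38.p6) gave a promoter for 8 of the 10 members, and those of Klf3, Klf7 and Klf13 are not shown. Each line runs 5′ to 3′ on the gene's own strand and ends before the earlier of the RefSeq and GENCODE gene starts. Capitals mark matches on either strand to the CACCC box (CACCC), the GC box (GGGCGG), the CCAAT box (CCAAT), the E-box (CACGTG), the AP-1 site (TGANTCA) or the MEF2 site.
Klf2: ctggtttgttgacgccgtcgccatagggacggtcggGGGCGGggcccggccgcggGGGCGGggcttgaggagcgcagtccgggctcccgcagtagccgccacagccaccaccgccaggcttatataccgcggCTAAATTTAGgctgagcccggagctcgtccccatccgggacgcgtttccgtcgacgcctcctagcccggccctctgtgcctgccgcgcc
Klf4: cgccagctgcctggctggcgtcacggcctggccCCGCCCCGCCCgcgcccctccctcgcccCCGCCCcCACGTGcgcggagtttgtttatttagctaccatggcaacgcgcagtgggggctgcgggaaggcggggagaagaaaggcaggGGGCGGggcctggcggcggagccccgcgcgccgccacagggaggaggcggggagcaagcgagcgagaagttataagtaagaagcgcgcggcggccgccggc
Klf6: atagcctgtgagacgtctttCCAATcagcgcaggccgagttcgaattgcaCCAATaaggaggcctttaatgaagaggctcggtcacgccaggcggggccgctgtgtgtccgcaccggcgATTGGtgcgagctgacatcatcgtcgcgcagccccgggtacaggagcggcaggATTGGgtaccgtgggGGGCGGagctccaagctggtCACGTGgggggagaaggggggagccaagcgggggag
Klf9: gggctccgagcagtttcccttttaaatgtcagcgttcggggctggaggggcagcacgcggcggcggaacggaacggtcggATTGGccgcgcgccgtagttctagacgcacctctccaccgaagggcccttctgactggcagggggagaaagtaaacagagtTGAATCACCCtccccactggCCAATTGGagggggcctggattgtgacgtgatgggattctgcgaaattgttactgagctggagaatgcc
Klf15: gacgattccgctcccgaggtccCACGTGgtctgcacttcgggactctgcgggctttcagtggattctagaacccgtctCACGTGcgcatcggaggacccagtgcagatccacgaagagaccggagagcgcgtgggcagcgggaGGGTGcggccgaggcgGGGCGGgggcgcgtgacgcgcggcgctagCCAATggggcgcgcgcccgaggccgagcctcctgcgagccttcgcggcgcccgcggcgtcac
The windows lie at chr8:72318812-72319032 (plus strand, Klf2), chr4:55532476-55532725 (minus strand, Klf4), chr13:5861239-5861481 (plus strand, Klf6), chr19:23140976-23141225 (plus strand, Klf9) and chr6:90462326-90462575 (plus strand, Klf15). Counted back from the RefSeq gene start, the MEF2 match of Klf2 covers -118 to -109. The E-box of Klf4 covers -182 to -177 and that of Klf6 covers -43 to -38. Klf15 has 2 E-boxes, the first beginning at -228 and the second at -172. In Klf9 the AP-1 match at -89 to -83 overlaps the CACCC box at -84 to -80. Of the 8 members with a promoter, 3 held an E-box within 250 bases before the start (Klf4, Klf6 and Klf15), against 6.02% of 32851 RefSeq promoters. Only Klf9 of the 8 held an AP-1 match (6.75% of all promoters) and only Klf2 a MEF2 match (2.92%). The GC box was in 7 of the 8 (32.7% of all promoters), the CACCC box in 6 (52%) and the CCAAT box in 4 (33.8%). These counts use the 250 bases before the RefSeq start. They lie within the GENCODE gene for Klf7 and run into it for Klf2, Klf3 and Klf6. The only CACCC box of Klf2 (-19 to -15) falls in the 29 bases left off its line. The letters of the cAMP response element (TGACGTCA), the TATA box (TATAAA), the glucocorticoid receptor half-site (TGTTCT), the CArG box and the NF-kB site were in none of the 8 windows, against 1.55%, 12.4%, 16.1%, 1.47% and 3.9% of all promoters. The 8 windows were 59.2 to 78.4% G or C, and the shares of all promoters were not matched for this content. These are matches of letters and no binding was measured.

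The transcript rows of a gene did not hold the same transcript in every library. Among 681 genes with 2 transcript rows, the same row held the larger value in 50.3% of pairs of libraries, and rows in random order would give 50%. Among 508 genes with 3 rows the share was 33.3%, the value of random order. Klf4 shows it: the first of its 3 rows held 0.373, 96.2, 1.31 and 96.8% of the Klf4 counts in Sham libraries 1 to 4. Klf3, Klf4, Klf7, Klf13 and Klf15 have several rows, and the largest of them changed from library to library in all 5. Sums over a gene do not depend on the order of its rows. Between libraries these sums correlated, across genes, with a Pearson's r of 0.954 to 0.988 for 11114 genes with several rows and 0.941 to 0.983 for 2601 genes with 1 row. All results below therefore use gene sums, and no transcript of a member is described by name beyond this check.

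**Figure D1:**
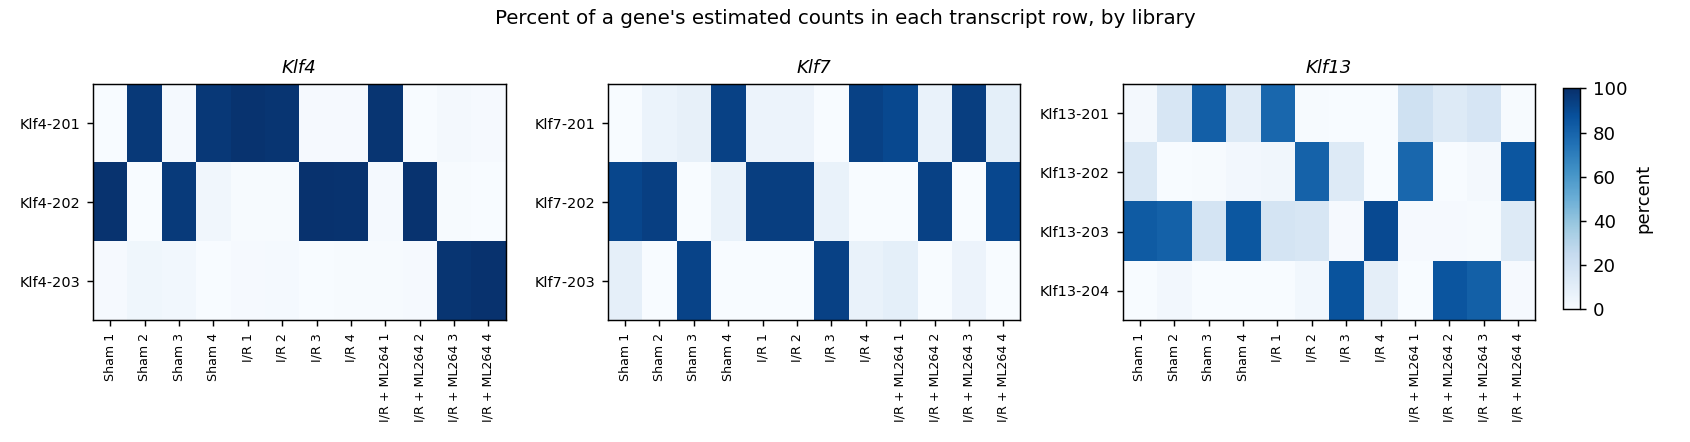
Percent of the estimated counts of Klf4, Klf7 and Klf13 in each transcript row (vertical axis, GENCODE names) in each of the 12 libraries (horizontal axis), with darker blue for a higher percent. One row holds most of each gene in a library, at 95.9 to 99% for Klf4, 90.4 to 94.4% for Klf7 and 78.8 to 90% for Klf13, but which row it is changes between libraries of 1 group.

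Libraries held 22.26 to 29.93 M estimated counts, so 3 counts correspond to 0.1002 to 0.1348 counts per 1 M counts (CPM). Of 25622 symbols with counts, 15952 passed the filter on low counts and were tested. Summed CPM of 8 cardiomyocyte markers was far above that of any other cell type, as the tissue label says, with a range of 22200 to 25900 in Sham, 24400 to 27700 after I/R and 23700 to 28200 with ML264. Endothelial markers summed to 549 to 597, 533 to 592 and 524 to 623 CPM in these groups, but single markers moved: of 8, Flt1 rose after I/R (131 to 199 CPM on average, adjusted p = 0.0292) and Kdr fell (156 to 90.3 CPM, adjusted p = 0.0323), and 6 had an unadjusted p under 0.05. Neutrophil markers summed to 4.74 to 7.33 CPM in Sham, with S100a8 and Ly6g at 0 in all 4 libraries, against 7.96 to 18.3 CPM after I/R and 5.17 to 20.1 CPM with ML264. Of 5 tested neutrophil markers, 3 rose after I/R (Clec4d, Mmp9 and Trem1), all to averages under 1 CPM. Epicardial markers summed to 2.87 to 4.47 CPM in Sham, 7.55 to 12.6 after I/R and 4.77 to 14.2 with ML264. Wt1, 1 of 2 tested epicardial markers, rose after I/R (2.95 to 9.90 CPM on average, adjusted p = 0.0122). The median log2 fold change of these 2 was 0.09, so they did not move alike. The macrophage marker Adgre1 fell (7.21 to 4.52 CPM, adjusted p = 0.0174), while 7 of 8 monocyte and macrophage markers were not called (median -0.14). Tnnt2 was the 1 of 8 cardiomyocyte markers called higher, and Pdgfrb the 1 of 6 smooth muscle and pericyte markers called lower. The part of these cell types in the members' changes was not tested. Platelet markers reached 158 CPM in I/R replicate 4 and 115 in I/R + ML264 replicate 4, against 4.87 to 20.6 in Sham. Y-linked transcripts were near 0 in I/R replicates 1 and 4 and in I/R + ML264 replicates 1 and 2 (Ddx3y 0.106 to 0.482 CPM, against 38.9 to 51.9 in the other 8 libraries), so the groups differ in this makeup and the labels give no sex. The I/R and the I/R + ML264 libraries thus came from more than 1 mouse in each group, and for Sham this is not shown. The clock gene Arntl was highest in Sham replicates 2 and 3 and I/R replicate 1. In bulk tissue, fewer cells of a type and less RNA per cell cannot be told apart.

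After ischemia and reperfusion, 5 members rose: Klf3, Klf4, Klf7, Klf9 and Klf15. None fell. The increases ran from 1.3-fold for Klf3 to 2.28-fold for Klf4. Of the 9 members that passed the filter, the 5 called higher compare with 4.58% of all 15952 genes called higher and 7.74% called in either direction (edgeR's quasi-likelihood test, adjusted p under 0.05 over all genes). The I/R libraries lay wholly above the Sham libraries for 6 members, the same 5 and Klf13, against 8.54% of all genes. All 9 estimates were above 0, with a median log2 fold change of 0.70 against 0 for all genes tested. Klf5 was the member that did not pass the filter. The members were chosen with earlier results of these data known, so these shares and this median are no test of the family. Of the 3 other family members that passed the filter, none was called, and their median log2 fold change was -0.33.

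**Figure D2:**
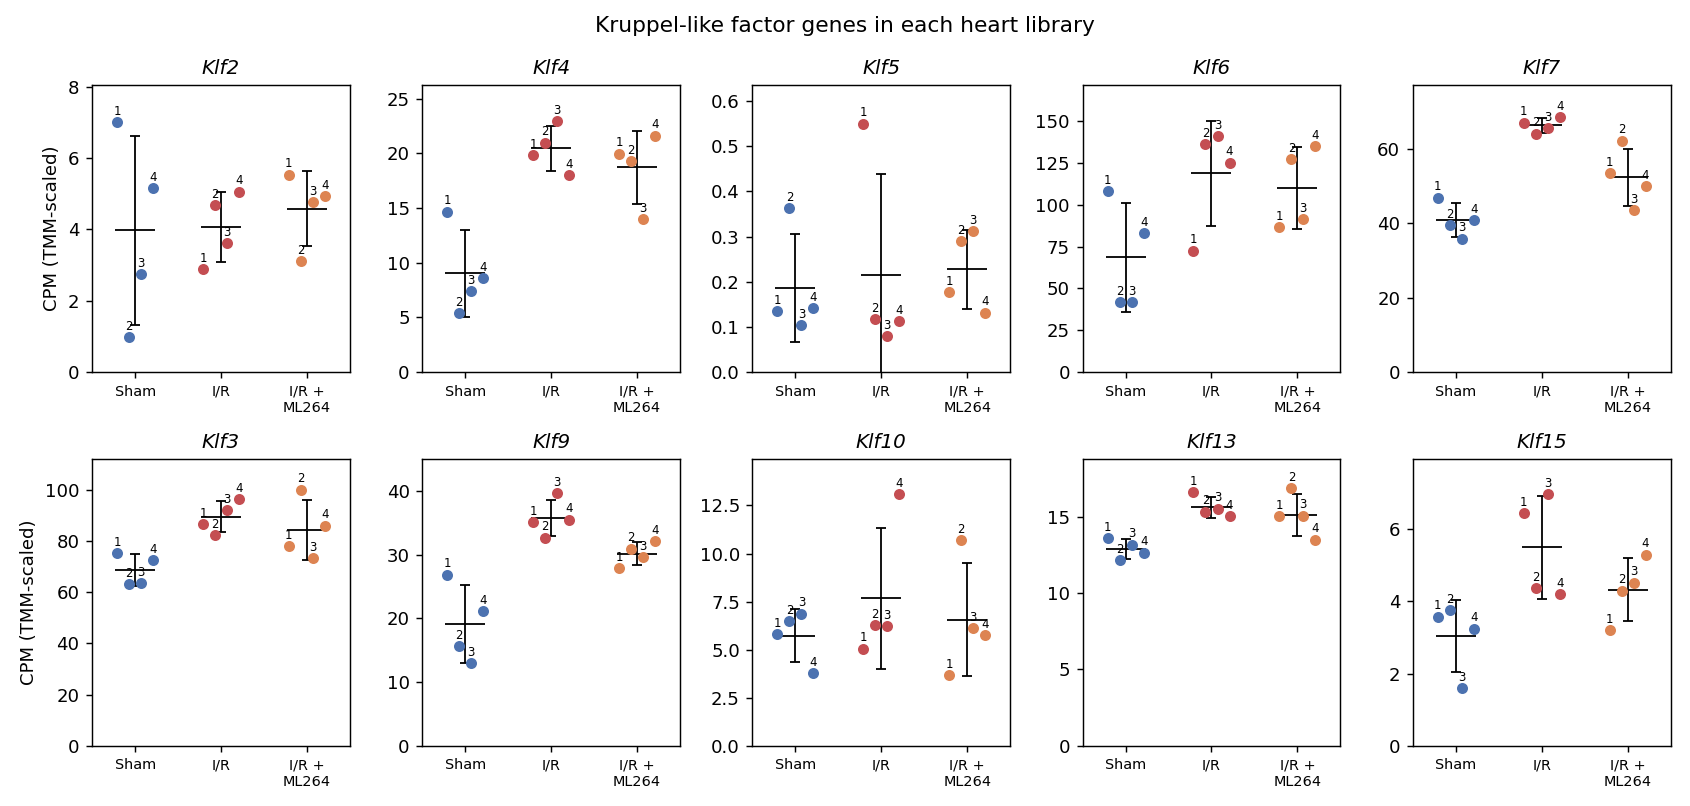
Level of each of the 10 members (vertical axis, TMM-scaled CPM) in the 4 libraries of each group, with the replicate number beside each point and the mean and SD as bars (the bar of Klf5 in I/R is cut at 0). The I/R points lie above all Sham points for Klf3, Klf4, Klf7, Klf9, Klf13 and Klf15, and the Sham points of Klf2 and Klf6 are widely spread.

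Klf4 (chr4:55527143-55532466, minus strand, GRCm38), which restrains inflammation and clotting in endothelium and is also made in smooth muscle and monocytes, had the largest increase. It stood at 14.7, 5.36, 7.43 and 8.60 CPM in Sham replicates 1 to 4. In I/R it stood at 19.81, 20.99, 22.97 and 18.04 CPM. The lowest I/R library was above the highest Sham library, and Sham replicate 1 was well above the other Sham libraries. The log2 fold change was 1.19 ± 0.25 (SE; 95% interval 0.66 to 1.72; adjusted p = 0.0135). The summed monocyte and macrophage markers were 101 to 174 CPM in Sham and 96.6 to 121 CPM in I/R, and the endothelial markers, with Flt1 higher and Kdr lower, are given above. Leaving out any 1 of the 12 libraries kept the call. In the 4 Sham and 2 I/R libraries with Y-linked transcripts the log2 fold change was 1.30, with an adjusted p of 0.129.

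Klf2 (chr8:72319033-72321656, plus strand), the flow-induced factor of endothelium that shares many targets with KLF4, stayed within its Sham range. Its Sham values were 7.01, 0.978, 2.74 and 5.14 CPM. Its I/R values were 2.89, 4.68, 3.62 and 5.05 CPM, all between the lowest and highest Sham libraries. The estimated log2 fold change was 0.04 ± 0.45 (95% interval -0.95 to 1.04; adjusted p = 0.968), an interval that allows changes of about the size seen for Klf9 in either direction. The Sham spread was 66.8% of the mean for Klf2, against 24.3% in I/R. The sign of this estimate changed with the fit: without Sham replicate 2 it was -0.29.

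Klf6 (chr13:5861482-5870394, plus strand), a member induced by tissue injury in many organs, was widely spread in Sham and not called. Sham libraries held 108, 42.0, 42.0 and 83.0 CPM. I/R libraries held 72.6, 136, 141 and 125 CPM, and I/R replicate 1 lay below Sham replicates 1 and 4. The log2 fold change was 0.79 ± 0.35 (95% interval 0.00 to 1.58; adjusted p = 0.215). Klf10 (chr15:38291463-38300706, minus strand), first known as an early gene induced by transforming growth factor beta (TGF-beta), was low in every group. It held 5.79, 6.48, 6.88 and 3.77 CPM in Sham and 5.05, 6.29, 6.23 and 13.1 CPM in I/R. The groups overlapped, and I/R replicate 4, which also carried the highest platelet markers, was far above the rest. In I/R + ML264 replicate 4, the other library rich in platelet markers, Klf10 stood at 5.78 CPM. In I/R + ML264 replicate 2 it stood at 10.7 CPM, with platelet markers at 8.56 CPM. A link of Klf10 to platelet markers was not tested. The log2 fold change of Klf10 in I/R was 0.42 ± 0.36 (adjusted p = 0.541).

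Klf9 (chr19:23141226-23168134, plus strand), a repressor that glucocorticoid and thyroid hormone receptors induce, rose 1.87-fold. Sham libraries held 26.87, 15.61, 12.99 and 21.1 CPM. I/R libraries held 35.2, 32.7, 39.6 and 35.5 CPM, a narrow band above every Sham library. On the log2 scale the change was 0.90 ± 0.17 (95% interval 0.54 to 1.27; adjusted p = 0.0073). This call held in all 12 fits without 1 library and in the fits with Arntl (0.77, adjusted p = 0.0213) or Y-linked transcripts (0.93, adjusted p = 0.0272) as a covariate. In the libraries with Y-linked transcripts alone it was 0.92 with an adjusted p of 0.11.

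Klf15 (chr6:90462576-90475238, plus strand), which controls branched-chain amino acid and lipid use in heart and also answers to glucocorticoids, was low but higher after injury. It held 3.574, 3.766, 1.598 and 3.241 CPM in Sham and 6.45, 4.36, 6.96 and 4.19 CPM in I/R. All 4 I/R libraries were above all 4 Sham libraries, with I/R replicates 1 and 3 highest. The log2 fold change was 0.85 ± 0.25 (95% interval 0.32 to 1.39; adjusted p = 0.0477), just under the threshold. Leaving out 1 library ended the call in 11 of 12 cases (all but I/R + ML264 replicate 1), with log2 fold changes of 0.64 to 0.97 and adjusted p-values of 0.0509 to 0.131.

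Klf7 (chr1:64029447-64122282, minus strand), a broadly made activator known from neurons and fat, had the smallest adjusted p of the 10. Its Sham values were 46.9, 39.4, 35.8 and 40.9 CPM. Its I/R values were 67.0, 64.0, 65.4 and 68.5 CPM, with an SD of 2.9% of their mean and no overlap with Sham. The log2 fold change was 0.70 ± 0.10 (95% interval 0.49 to 0.92; adjusted p = 0.00085), and the call held in every fit tried, down to the libraries with Y-linked transcripts alone (0.67, adjusted p = 0.00414). The level of Klf7 is uncertain in another way: 38.7% of its 31-base words also occur in the opposite-strand noncoding gene Gm26649, which has no row in the table, and the library kit does not mark strand. Reads from that shared stretch cannot be told apart.

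Klf3 and Klf13 are repressors, KLF3 through CtBP and KLF13 through SIN3. Klf3 (chr5:64803388-64832901, plus strand) held 75.2, 63.1, 63.6 and 72.7 CPM in Sham and 86.8, 82.4, 92.2 and 96.3 CPM in I/R, without overlap. Its log2 fold change was 0.38 ± 0.10 (adjusted p = 0.0236). This call ended without Sham replicate 2, Sham replicate 3, I/R replicate 3 or I/R replicate 4, at log2 fold changes of 0.34 to 0.37 and adjusted p-values of 0.0575 to 0.0785. With Y-linked transcripts as a covariate the adjusted p was 0.102. Klf13 (chr7:63886351-63938915, minus strand) was the least variable member in Sham (SD 4.98% of the mean), at 13.6, 12.1, 13.2 and 12.7 CPM in Sham and 16.6, 15.3, 15.5 and 15.0 CPM in I/R. The groups did not overlap, yet the log2 fold change of 0.28 ± 0.10 had an adjusted p of 0.0979.

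Klf5 (chr14:99298691-99315036, plus strand), which encodes the protein ML264 is given to inhibit, was at the edge of detection. It had 3, 10, 3 and 4 counts in Sham replicates 1 to 4. I/R libraries had 15, 3, 2 and 3 counts. I/R + ML264 libraries had 5, 9, 8 and 3 counts. In 6 of the 12 libraries the count was 3 or fewer, and the group totals were 20, 23 and 25 counts. Without the filter, the log2 fold change of I/R against Sham was 0.21 ± 0.77 (95% interval -1.37 to 1.79; adjusted p = 0.992) and that of I/R + ML264 against I/R was 0.08 (95% interval -1.48 to 1.64). A change of Klf5 message was therefore not detectable at this depth, and a message level does not measure the KLF5 protein or its inhibition.

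Levels of different members can be compared only per length. For the members with 1 transcript row, Sham libraries held 16.3 ± 7.72 (SD, n = 4) CPM per kb of transcript of Klf6, 4.27 ± 1.37 of Klf9, 2.15 ± 1.44 of Klf2, 1.88 ± 0.454 of Klf10 and 0.0555 ± 0.0356 of Klf5. The ranges of Klf9 (2.90 to 5.99) and Klf2 (0.529 to 3.8) overlapped, as did those of Klf2 and Klf10 (1.24 to 2.26), so their order is not settled by these libraries. Klf6 (9.93 to 25.6) lay above and Klf5 (0.031 to 0.108) below all the others. In I/R the same 5 genes stood at 28.1, 7.97, 2.2, 2.52 and 0.0642 CPM per kb, which places Klf2 and Klf10 in the other order with overlapping ranges. Per-length levels of the members with several rows would depend on which transcript is made, which cannot be read from rows that are out of order.

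**Figure D3:**
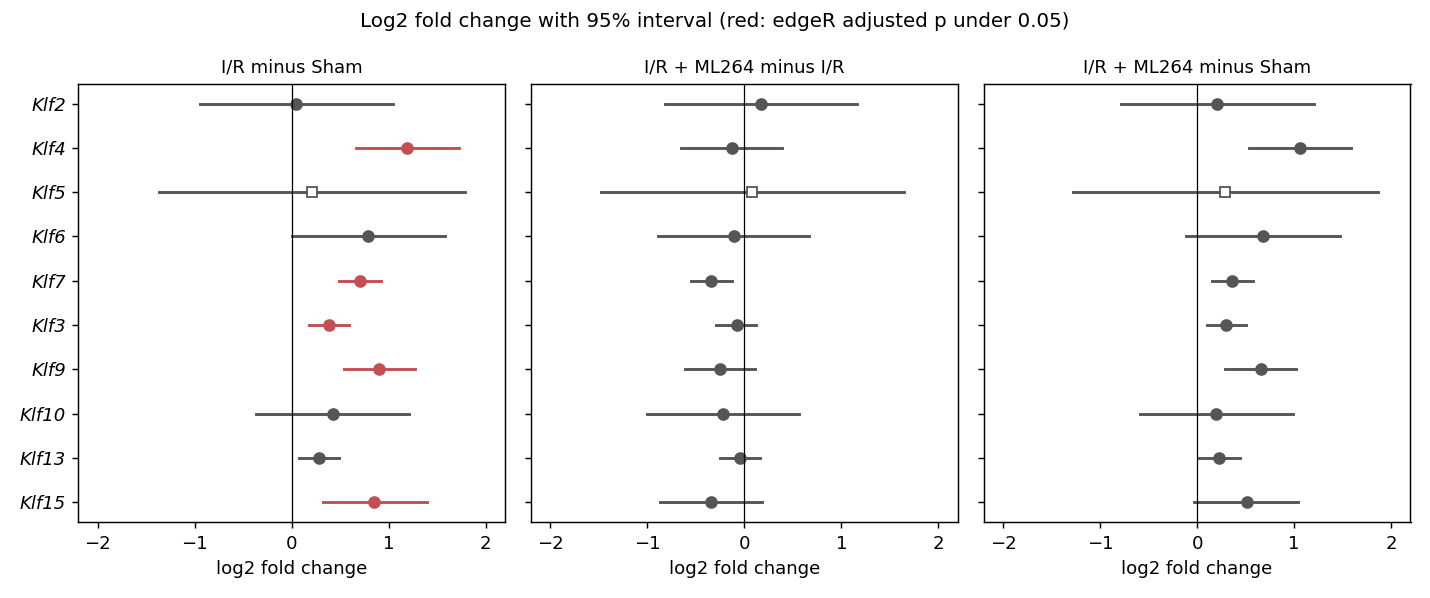
Log2 fold change (horizontal axis) of each member in the 3 comparisons, with 95% intervals, red where edgeR's adjusted p was under 0.05, and an open square for Klf5, which is from the fit without the filter. Red appears only for I/R against Sham (Klf3, Klf4, Klf7, Klf9 and Klf15), and in the middle panel 8 of the 9 filled points lie below 0.

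The comparison of I/R + ML264 with I/R asks what the compound changed in injured hearts. It shares its I/R libraries with the first comparison, so a lower level here is not independent of a higher level there. No member was called by edgeR (0 of 9, against 0.0502% of all genes) or by DESeq2 (0, against 153 of all 15952 genes). At an unadjusted p under 0.05 there was 1, and the share of all genes at that level is not given here. The estimates were small: 8 of 9 were below 0, with a median log2 fold change of -0.13 against 0 for all genes. Klf7 and Klf9 were the members whose ML264 libraries all lay below the I/R libraries, 2 of 9 against 3.08% of all genes. Klf7 held 53.4, 62.1, 43.6 and 50 CPM under ML264, under the 64.0 CPM of the lowest I/R library. Its log2 fold change was -0.34 ± 0.10 (95% interval -0.55 to -0.13; adjusted p = 0.242 by edgeR over all genes). Klf9 held 27.9, 30.9, 29.6 and 32.1 CPM, under the 32.7 CPM of the lowest I/R library. Its log2 fold change was -0.25 ± 0.17 (95% interval -0.61 to 0.11; adjusted p = 0.647). Neither was called in any alternative fit, where the adjusted p ran from 0.0681 to 0.462 for Klf7 and from 0.416 to 0.896 for Klf9. The lowest of these for Klf7 came without I/R + ML264 replicate 2, at a log2 fold change of -0.43. That library stood farthest from the others of its group (chi-square per gene 48.63 to 75.82), and leaving it out raised the genes called in this comparison from 8 to 85, with 0 members among them.

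The other members overlapped between I/R and I/R + ML264. Klf4 stood at 19.97, 19.27, 13.98 and 21.61 CPM under ML264, and its log2 fold change of -0.13 had a 95% interval of -0.65 to 0.39. Klf3 stood at 78.0, 100.1, 73.4 and 86.0 CPM (log2 fold change -0.08 ± 0.10, interval -0.29 to 0.12). Klf13 stood at 15.0, 16.9, 15.1 and 13.5 CPM, with an interval of -0.25 to 0.16. These intervals are narrow beside those of Klf2 (-0.82 to 1.16), Klf6 (-0.89 to 0.67) and Klf10 (-1 to 0.56), and a missed threshold does not show that a level was alike with and without ML264. Klf15 stood at 3.19, 4.29, 4.52 and 5.29 CPM, with a log2 fold change of -0.35 and an interval of -0.87 to 0.18. Klf6 stood at 86.9, 127, 91.7 and 135 CPM, Klf2 at 5.53, 3.10, 4.75 and 4.94 CPM, and Klf10 at 3.69, 10.7, 6.12 and 5.78 CPM.

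The comparison of I/R + ML264 with Sham shares its ML264 libraries with the preceding one and its Sham libraries with the first, so its values stand beside those and add no independent evidence. No member was called by edgeR (0 of 9, against 0.288% of all genes). An unadjusted p under 0.05 was seen for 5, and the share of all genes at that level is not given here. DESeq2 called 2 members, against 370 of all 15952 genes. Those 2 were Klf4 (log2 fold change 1.06 ± 0.25 by edgeR, adjusted p = 0.113; DESeq2 adjusted p = 0.00109) and Klf9 (0.66 ± 0.17, adjusted p = 0.126; DESeq2 adjusted p = 0.0163). Both were also called by edgeR without Sham replicate 1, at 1.39 (adjusted p = 0.002) for Klf4 and 0.86 (adjusted p = 0.0103) for Klf9. Klf9 was the member with no overlap, 1 of 9 against 3.99% of all genes lying higher. Klf7 was at 0.36 ± 0.10 (adjusted p = 0.138) and Klf3 at 0.30 ± 0.10 (adjusted p = 0.181). The median over the 9 members was 0.36, against 0.70 for I/R over Sham, and the difference between these medians was not tested.

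The libraries with the least Klf2 and Klf6 were those with the most Arntl, the clock gene that encodes the partner of CLOCK in the circadian oscillator. Arntl stood at 10.4 CPM in Sham replicate 2, 15.3 in Sham replicate 3 and 11.1 in I/R replicate 1, and at 1.05 to 3.25 CPM in the other 9 libraries. These 3 libraries were the 3 lowest of the 12 for Klf2 (at most 2.89 CPM, against 3.10 to 7.01 in the rest). They were also the 3 lowest for Klf6 (at most 72.6 CPM, against 83.0 to 141). For Klf3, Klf4, Klf7, Klf9 and Klf13, 2 of these 3 libraries, both Sham, were among the 3 lowest. In these genes every I/R library lay above every Sham library, so that count cannot be told apart from the group difference. For Klf5, Klf10 and Klf15, 1 of the 3 libraries was among the 3 lowest. The order by Arntl was noticed in the data, and no sampling time is given in the labels. With Arntl as a covariate, the log2 fold change of I/R against Sham went from 0.79 to 0.35 for Klf6 and from 0.04 to -0.39 for Klf2, neither called. The same fit gave 1.08 for Klf4 (adjusted p = 0.0484) and 0.68 for Klf7 (adjusted p = 0.00574), which both kept their calls, and 0.33 for Klf3 (adjusted p = 0.093) and 0.85 for Klf15 (adjusted p = 0.105), which both lost them.

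**Figure D4:**
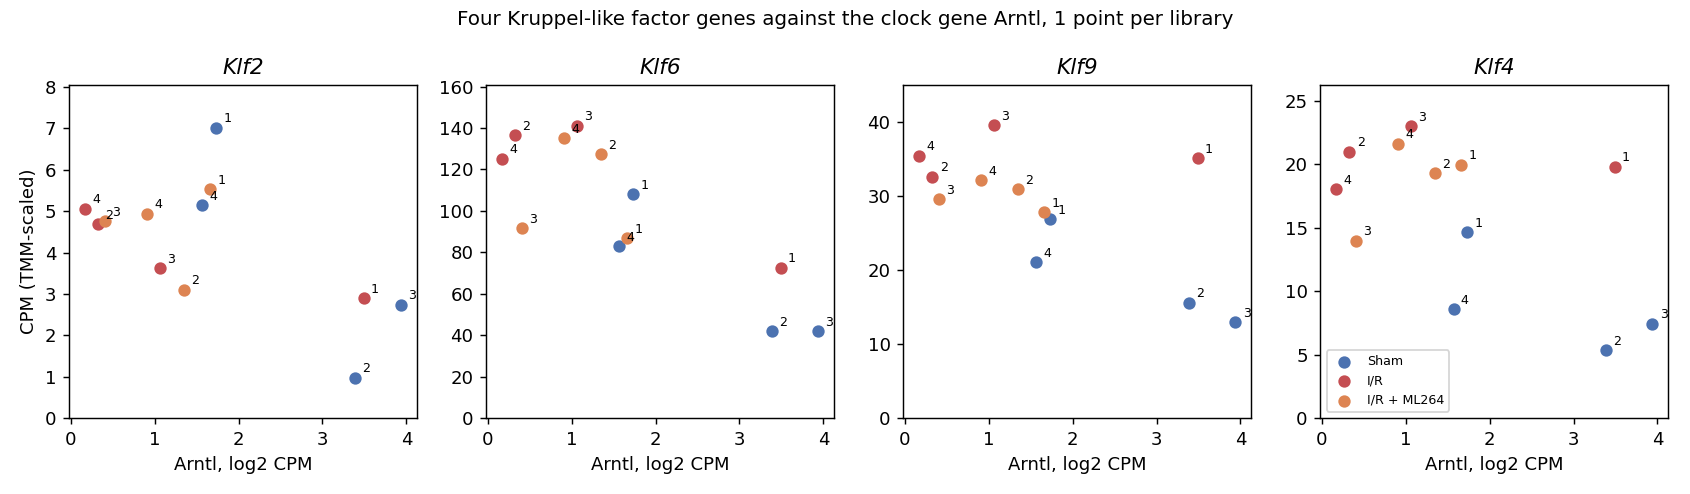
Level of Klf2, Klf6, Klf9 and Klf4 (vertical axes, TMM-scaled CPM) against Arntl (horizontal axis, log2 CPM), 1 point per library with its replicate number. The 3 libraries at the right, Sham replicates 2 and 3 and I/R replicate 1, are the lowest for Klf2 and Klf6, while I/R replicate 1 stays with the other I/R libraries for Klf9 and Klf4.

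Lists of genes around the family are given by their counts and medians. The background for each edgeR count after I/R, here and for the lists that follow, is the 7.74% of all genes that edgeR called. A share near it is no result about a list. For the DESeq2 counts the background is 1779 of 15952 genes, and for unadjusted p under 0.05 it is not given here. None of the 3 other tested family members was called after injury (Klf8, Klf11 and Klf12; edgeR 0, DESeq2 0, unadjusted p under 0.05 for 1), and their median log2 fold change was -0.33. Klf11, the closest relative of Klf10, stood at 28.2 ± 4.16 CPM in Sham and 22.4 ± 2.88 CPM in I/R (SD, n = 4; log2 fold change -0.33 ± 0.12, adjusted p = 0.104). Klf1, Klf14, Klf16 and Klf17 had at most 10 counts in any library. None of the 5 tested SP factors, which bind the same GC boxes, was called (DESeq2 0, unadjusted 0). Nor was any of the 9 CtBP and SIN3 corepressor genes (DESeq2 0, unadjusted 2; median 0.00). Of 7 coactivators and ubiquitin ligases of KLF proteins, Smurf1 fell by 0.52 ± 0.11 on the log2 scale (adjusted p = 0.0125), from 14.9 to 10.4 CPM. That ligase call ended with Y-linked transcripts as a covariate (adjusted p = 0.0647).

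The pathway upstream of Klf2 and Klf4 and the endothelial targets of their products were counted separately. None of the 10 genes of the MEK5-ERK5-MEF2 pathway, which carries the flow signal to both promoters, was called (DESeq2 0, unadjusted 2; median -0.03), against 7.74% of all genes, which is no result about the pathway. Of 11 tested endothelial targets, 3 rose and 2 fell, with a median of 0.58. Sele, the adhesion molecule E-selectin, went from 0.498 to 0.846 CPM in Sham to 6.48 to 21.6 CPM in I/R (log2 fold change 4.31 ± 0.62, adjusted p = 0.00409). S1pr1, a sphingosine-1-phosphate receptor that seals the vessel wall, went from 28.2 ± 8.27 to 72.4 ± 10.1 CPM (1.36 ± 0.24, adjusted p = 0.00831). Edn1, which encodes the constrictor endothelin 1 and which KLF2 represses, fell from 3.37 ± 0.415 to 1.62 ± 0.44 CPM (-1.06 ± 0.23, adjusted p = 0.0108). Vcam1 also rose (0.58 ± 0.14, adjusted p = 0.0192) and Tek fell (-0.45 ± 0.11, adjusted p = 0.0221). Vcam1 and Sele are genes that these factors are known to restrain, and S1pr1 and Tek genes that they are known to raise, so the 5 calls do not share 1 direction relative to the list's name. Nos3, the endothelial nitric oxide synthase, stood at 13.1 ± 2.69 CPM in Sham and 24.2 ± 2.47 CPM in I/R (0.89 ± 0.28, adjusted p = 0.0795). The calls of Sele, S1pr1 and Edn1 held in every fit without 1 library. In the libraries with Y-linked transcripts alone, S1pr1 had an adjusted p of 0.112 and Edn1 of 0.0922. The Edn1 call also ended with Y-linked transcripts as a covariate (-0.92, adjusted p = 0.0549).

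Of 16 tested KLF15 targets of heart metabolism, 2 rose and 1 fell, with a median of 0.07. Bcat2, which starts branched-chain amino acid breakdown, rose by 0.58 ± 0.15 (adjusted p = 0.0219). Pdk4, which slows glucose oxidation, rose from 404 ± 106 to 719 ± 107 CPM (0.83 ± 0.22, adjusted p = 0.0444). Slc25a20, the mitochondrial acylcarnitine carrier, fell by 0.32 ± 0.09 (adjusted p = 0.0331). Each of these 3 calls ended when single libraries were left out. Bcat2 lost its call without Sham replicate 3 or 4 or I/R replicate 3 (adjusted p 0.0599 to 0.0659). Slc25a20 lost it in 6 of 12 such fits (Sham replicates 1, 3 and 4, I/R replicates 1, 2 and 4; 0.062 to 0.109). Pdk4 lost it in 9 (all but Sham replicate 4 and I/R + ML264 replicates 1 and 2, 0.0577 to 0.116). With Y-linked transcripts as a covariate, Slc25a20 (adjusted p = 0.152) and Pdk4 (0.156) lost their calls and Bcat2 kept its call (0.015). With Arntl as a covariate, Bcat2 (0.0965) and Pdk4 (0.122) lost their calls and Slc25a20 kept its call (0.0227). Of 8 genes linked to KLF5, only Sptlc2, a subunit of the enzyme that starts ceramide synthesis, rose (0.44 ± 0.12, adjusted p = 0.0287). It was not called without Sham replicate 2 or 4 or I/R replicate 2 or 4 (0.0637 to 0.0959). Nor was it called with Y-linked transcripts (adjusted p = 0.116) or Arntl (adjusted p = 0.14) as a covariate. Ppara, the fatty acid receptor gene that KLF5 regulates in heart, stood at 27.1 CPM in Sham and 30 CPM in I/R (0.15 ± 0.11, adjusted p = 0.436).

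Of 13 TGF-beta genes around Klf10 and Klf6, Skil and Tgfb2 rose and the median was 0.04. Skil, an inhibitor of SMAD proteins, went from 33.4 ± 6.49 to 69.6 ± 11.9 CPM (1.06 ± 0.16, adjusted p = 0.00178). Tgfb2, a ligand of the pathway, went from 10.8 ± 0.837 to 17.2 ± 1.98 CPM (0.67 ± 0.12, adjusted p = 0.00451). Both calls held in all 24 alternative fits. Of 10 genes of the glucocorticoid list, which holds known neighbours of Klf9 and Klf15, 2 rose and the median was 1.13. Errfi1, an inhibitor of epidermal growth factor receptors, rose by 2.19 ± 0.47 (adjusted p = 0.0242), and the cell-cycle inhibitor Cdkn1a by 2.79 ± 0.60 (adjusted p = 0.0245). Errfi1 was not called without Sham replicate 3 or 4 or I/R replicate 2 or 3 (0.0531 to 0.0658), nor Cdkn1a without Sham replicate 2, 3 or 4 or I/R replicate 1 or 4 (0.0502 to 0.0702). With Y-linked transcripts as a covariate, neither Errfi1 (adjusted p = 0.0666) nor Cdkn1a (adjusted p = 0.0823) was called. With Arntl as a covariate, Errfi1 lost its call (0.0565) and Cdkn1a kept it (0.036). Fkbp5 and Per1, which glucocorticoids induce directly, had log2 fold changes of 1.78 ± 0.62 (adjusted p = 0.121) and 1.83 ± 0.67 (adjusted p = 0.14). In the rest of the list, Sgk1, Dusp1, Zbtb16 and Tsc22d3 had log2 fold changes of 1.19, 1.06, 0.89 and 0.19. The receptor gene Nr3c1 had -0.19 and Angptl4 -1.03, and none of these was called.

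Of 16 clock genes, 3 rose after injury, with a median of 0.40. Cry2, a repressor of the oscillator, went from 17.6 ± 3.02 to 27.5 ± 3.39 CPM (0.65 ± 0.13, adjusted p = 0.00645), and this call held in all 24 alternative fits. Bhlhe40, a stress-responsive repressor of clock genes, rose by 1.65 ± 0.38 (adjusted p = 0.0305), but not without Sham replicate 2 or 3 or I/R replicate 2 or 4 (0.0557 to 0.0896). Cry1 rose by 1.17 ± 0.33 (adjusted p = 0.046) and lost the call in 9 of 12 fits without 1 library (all but I/R replicate 3 and I/R + ML264 replicates 1 and 2, 0.0549 to 0.134). With Y-linked transcripts as a covariate, the calls of Bhlhe40 (adjusted p = 0.105) and Cry1 (adjusted p = 0.181) ended. Both also ended with Arntl as a covariate (0.0553 for Bhlhe40, 0.173 for Cry1). Arntl itself was not called (-1.05 ± 0.83, adjusted p = 0.512). Under ML264 no gene of these 11 lists differed from I/R by edgeR, where 0 to 5 genes a list had an unadjusted p under 0.05 and DESeq2 called 1 gene at most. Against Sham, Cry2 was higher under ML264 (0.67 ± 0.13, adjusted p = 0.0317), at 27.8 ± 2.76 CPM. That call ended in 6 of 12 fits without 1 library (Sham replicates 2, 3 and 4, I/R replicate 2, I/R + ML264 replicates 2 and 4, 0.0504 to 0.127). It also ended with Y-linked transcripts (adjusted p = 0.0531) or Arntl (adjusted p = 0.187) as a covariate.

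**Figure D5:**
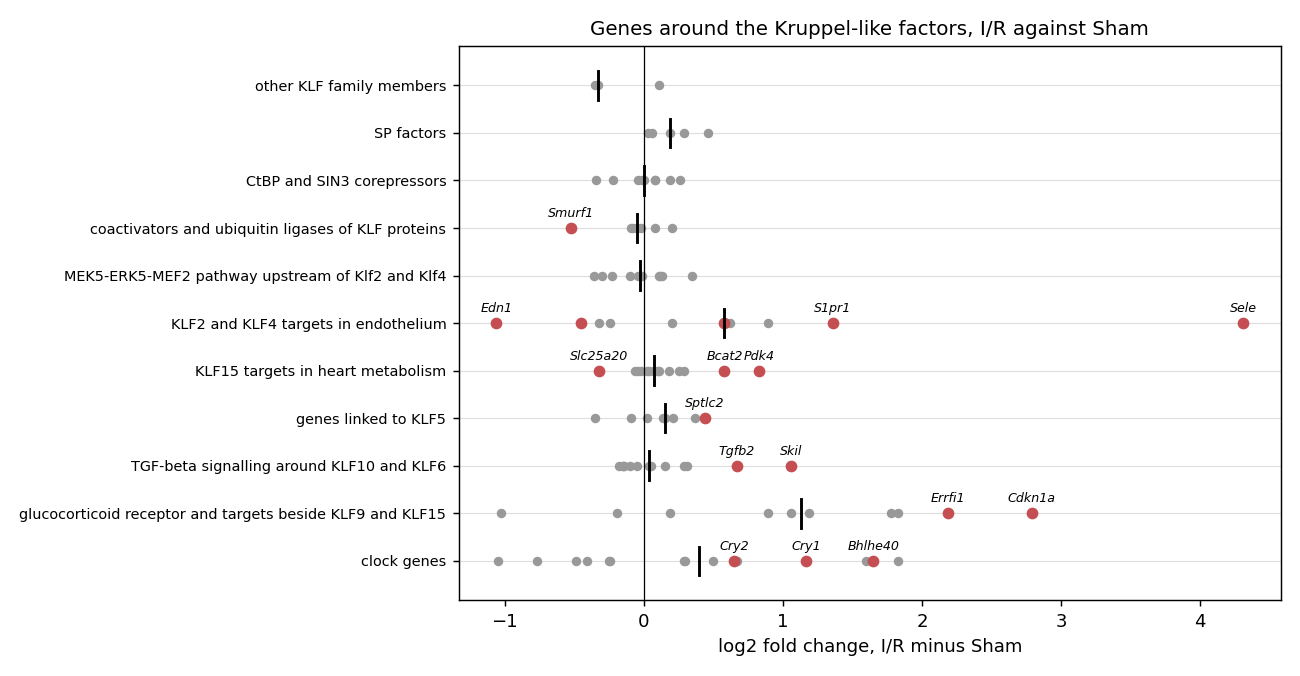
Log2 fold change of I/R against Sham (horizontal axis) for the tested genes of 11 lists around the Kruppel-like factors (vertical axis), 1 point per gene, red where edgeR's adjusted p was under 0.05, with a black bar at each list's median. Up to 3 called genes a list are named, and the medians run from -0.33 for the other family members to 1.13 for the glucocorticoid list.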

How the data were processed

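Total RNA from frozen mouse heart was sequenced in 12 libraries made with the Nextera XT kit, which does not mark strand, per the labels' protocols. The authors deposited 1 table of raw estimated counts, with 1 row per transcript and 1 column per library, and 45.8% of its values were not whole. FastQC and kallisto with GRCm38 (mm10) are named in the submitters' processing notes, and their versions are not given in the sources used. Estimated counts were summed per gene symbol, rounded to whole numbers and filtered with edgeR's filterByExpr (count minimum 10, by group). TMM scaling and the quasi-likelihood test of edgeR 4.0.16 (R 4.3.3, limma 3.58.1) were fitted to all 12 libraries with 1 term per group, and p-values were adjusted by the Benjamini-Hochberg method over 15952 genes, called at 0.05. Klf5 was taken from a fit without the filter. Intervals are 95% from the same fit. The fit was tested on simulated counts.

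Alternatives were DESeq2 1.42.0, other scalings and filters, other sets of libraries, a replicate block, covariates, and leaving out each of the 12 libraries. Tests per transcript were planned and not run, because a row does not hold the same transcript in each library. All 10 members were named in every comparison, with up to 3 called genes of each list with the smallest adjusted p. Named after their values were seen were Vcam1, Tek, Nos3, Klf11, Ppara, Fkbp5, Per1, Arntl, Flt1, Kdr, Wt1, Adgre1, Clec4d, Mmp9 and Trem1. The same holds for Tnnt2, Pdgfrb, Sgk1, Dusp1, Zbtb16, Tsc22d3, Nr3c1 and Angptl4. Members and lists were chosen with earlier results of these data known. Gene positions are from GENCODE M21 and promoters from RefSeq, both on GRCm38. Replicate libraries of a group differed by more than counting noise in every pair (chi-square per gene 7.762 to 75.82).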

Additional observations from a re-analysis of the deposited data

Results flagged for a closer look

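In each of the 3 groups, each member's 4 libraries were checked for a single library far from the other 3, which is 30 checks, and chance flags about 1 in 20 such groups. Klf5 in Sham replicate 2 was at 0.363 CPM, against 0.104 to 0.142 CPM in the other Sham libraries. Klf5 in I/R replicate 1 was at 0.55 CPM, against 0.0803 to 0.118 CPM in the other I/R libraries. These Klf5 values rest on 10 and 15 counts. Klf10 in I/R replicate 4 was at 13.1 CPM, against 5.05 to 6.29 CPM in the other I/R libraries. Without that library the log2 fold change of Klf10 under ML264 against I/R changed sign, from -0.22 to 0.17.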

How the results depend on the processing

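In I/R against Sham, 5 members were called. With Y-linked transcripts or with Arntl as a covariate 3 were called, without 1 library 3 to 5, and in the libraries with Y-linked transcripts alone 1. The Arntl covariate and the set of libraries with Y-linked transcripts alone were choices made after seeing the data. The other settings gave 4 or 5. Of all genes 1235 were called (730 higher, 505 lower), and 1779 by DESeq2 (1006 higher, 773 lower). The Y-linked covariate gave 456, the Arntl covariate 636 and the libraries with Y-linked transcripts alone 553. Without 1 library 659 to 1485 were called (659 without Sham 3, 1485 without ML264 2). Upper-quartile scaling gave 620 higher and 676 lower. In ML264 against I/R, 8 genes were called, and 153 by DESeq2, 26 without the filter, 2 with non-robust spread, 1 with the replicate block, 2 in the libraries with Y-linked transcripts alone and 0 to 85 without 1 library (0 without ML264 replicate 1, 85 without ML264 replicate 2). In ML264 against Sham, 46 genes were called, and 370 by DESeq2, 77 without the filter, 72 with non-robust spread, 27 from the 2 groups compared, 19 with the replicate block, 12 with either covariate, 27 in the libraries with Y-linked transcripts alone and 9 to 101 without 1 library (9 without Sham 3 or Sham 4, 101 without ML264 1, 15 without ML264 2). Members called there were 2 by DESeq2 and 0 to 2 without 1 library. The replicate numbers did not pair the libraries: deviations of same-numbered libraries correlated at -0.11 to 0.10, 0 of 12 pairs were over 0.1, and 1 of 12 libraries correlated best with its own number. With the replicate block, I/R against Sham gave 1009 genes and 4 members. Signs changed for uncalled members only. For Klf2 in I/R against Sham they were -0.39 (Arntl covariate), and -0.29, -0.10, -0.03 and -0.08 without Sham 2, Sham 3, I/R 2 and I/R 4, in a range of -0.29 to 0.46 without 1 library. For Klf2 in ML264 against Sham they were -0.24 (Arntl covariate) and -0.12 (without Sham 2; range -0.12 to 0.63). For Klf10 they were 0.17 in ML264 against I/R without I/R 4 (range -0.56 to 0.17), and -0.14 in ML264 against Sham without ML264 2 (range -0.14 to 0.4). The cause of these changes was not tested. The planned fits per transcript and of transcript usage, with their alternatives, were not run. Depth limits Klf5, and the spread of Sham limits Klf2 and Klf6.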

Other observations

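The spread between libraries of a group differed between members and groups. In Sham the SD was 66.8% of the mean for Klf2, 47.4% for Klf6, 44.3% for Klf4 and 32.2% for Klf9, and in I/R it was 24.3, 26.5, 10.1 and 8.06% for the same genes. Klf10 went the other way, at 24.1% in Sham and 47.8% in I/R, the latter with I/R replicate 4. Klf3, Klf7 and Klf13 had an SD of at most 11.3% of the mean in Sham and 6.81% in I/R. These differences in spread were not tested.

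Rows out of order within genes were not particular to the Kruppel-like factors. Among 446 genes with 4 transcript rows the same row was largest in 24.8% of pairs of libraries, and among 92 genes with 10 rows in 9.55%, where random order would give 25% and 10%. For genes with 2 rows, 40.4% of the counts on average sat in another row when 2 libraries were compared by row, and 4.27% did so after the rows of each library were sorted by value.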
